A study of Rattus norvegicus with 18 samples.

Results

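Annexins and S100 proteins are 2 families of calcium-binding proteins, and 10 of their genes were followed here in kidney of a congenic rat strain and of Dahl salt-sensitive (S) rats: Anxa1, Anxa2, Anxa3, Anxa4, Anxa5, Anxa6, S100a4, S100a6, S100a8 and S100a10. They were taken by name, as every probe set whose platform annotation gave exactly 1 gene symbol from that list. That rule uses no measured value, but the 10 genes were chosen with earlier results of these data known. The shares given below therefore only describe them. All 10 genes were on the arrays, with 24 probe sets among 26202 that are not controls, and they are 10 of 10969 genes with a single symbol. A probe set is a group of short probes against 1 transcript, and it gives 1 signal per array. The congenic strain carries a segment of rat chromosome 9 from a salt-resistant (R) rat on the S background, and the labels tie that segment to a blood pressure quantitative trait locus. The Dahl S strain is inbred for hypertension under high dietary salt, and it is the background strain of the congenic one. The data used here hold no genotypes, so the genome outside the segment was not checked. There were 3 congenic and 3 Dahl S samples of total kidney RNA, numbered 1 to 3 in each strain, and every sample was hybridised to 3 array types (A, B and C), so 18 arrays were read. The labels used here give no age, sex, diet or segment borders, and do not say outright that each sample is another animal, so the tests see only how these 6 samples vary, and part of that may be technical.

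Annexins bind the acidic phospholipids of membranes when calcium rises, and they take part in membrane repair, vesicle traffic, cytoskeletal anchoring and the ending of inflammation. S100 proteins are small EF-hand proteins that change shape on binding calcium and then dock onto partner proteins. The families meet in fixed pairs, such as annexin A2 with S100A10, which holds plasminogen and its activator at the cell surface, and annexin A1 with S100A11. In kidney, several members are known from injured tubules, from interstitial fibroblasts and from infiltrating leukocytes as well as from normal epithelium.

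No member passed the test of a difference between the strains. Of the 24 probe sets 16 were bright enough to be tested, at least 1 for every gene, and 13 of the 16 (81.2%) read lower in the congenic kidneys, against 50.5% of all tested probe sets. limma, a linear model fitted to log2 signal over all tested probe sets, called 0 of the 16 at an adjusted p of 0.05 (adjusted p = 0.9997 for each), as it called 0 of all 15721 tested (0%). At an unadjusted limma p under 0.05 it gave 1 of the 16 (6.25%), against 2.49% of all tested probe sets in either direction, 1.32% on the lower and 1.17% on the higher side. The values of the strains did not overlap in 3 of the 16 (18.8%), for Anxa2, Anxa3 and Anxa5, all lower in the congenic strain, against 3.49% of all tested probe sets, and 0 of the 16 were higher without overlap, against 3.59%. The Anxa3 probe set among these 3 is also the 1 of 16 above. It passed the filter only through its Dahl S signal, so neither count gains support from it. Since probe sets of 1 gene share a target, the gene is the safer unit. With 1 probe set per gene, the brightest tested one, 8 of 10 genes read lower, against 51.1% of the 8168 genes tested, and 1, Anxa2, was lower without overlap, against 3.8%. No gene was higher without overlap (3.82% of all genes), and 0 of the 10 had an unadjusted limma p under 0.05, against 2.35% of all genes, 1.36% lower and 0.992% higher. The median log2 difference of the 10 genes, congenic minus Dahl S, was -0.20, against -0.01 over all 8168.

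**Figure D1:**
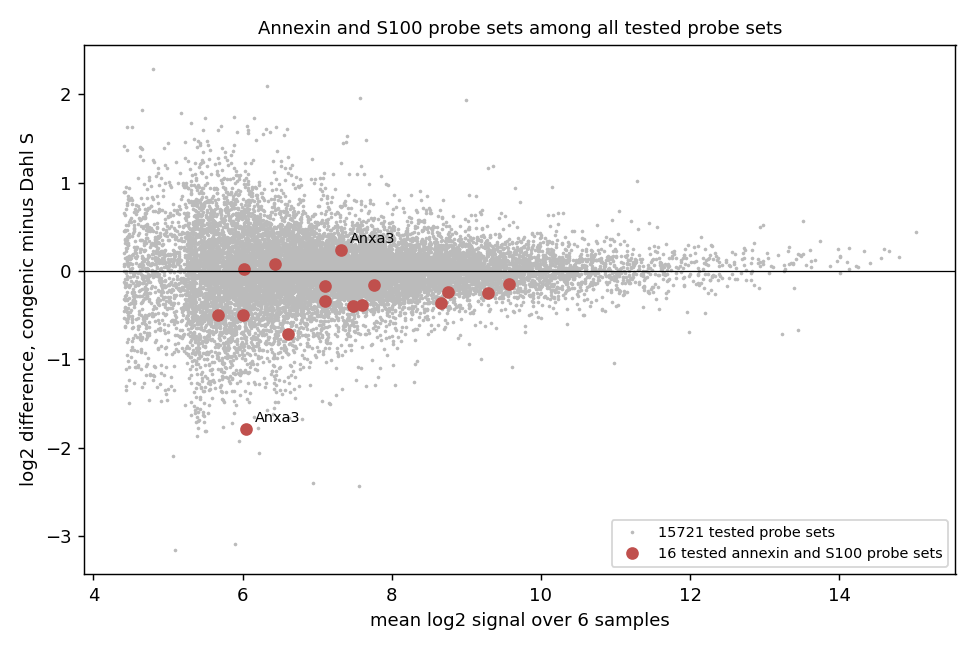
Mean log2 signal over 6 samples (horizontal axis) and log2 difference, congenic minus Dahl S (vertical axis), of the 15721 tested probe sets (grey) and of the 16 annexin and S100 probe sets among them (red). Of the 16, 13 lie below 0, and most lie inside the band of the grey points at their level; the 2 Anxa3 probe sets are named.

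The precision sets what these arrays could show. In the median of all tested probe sets, not of the members, the 95% interval reached 0.68 above and below the log2 estimate. That is more than the difference of most members. The members' own SE ran from 0.14 for Anxa2 to 0.65 for Anxa3 on type B. Of the 16 member intervals 15 held 0. The samples numbered 1 stood apart from the others in both strains, and without both of them 14 of the 16 probe sets and 8 of the 10 genes read lower, with a gene median of -0.23. Type A arrays had median signals of 34.8 to 45.9, those of type B were 60.4 to 78.5, and those of type C 61.1 to 75.6. A probe set was tested where its mean reached the filter level, 21.2 for A, 39.3 for B and 37.7 for C. Signals of different probe sets depend on the probes, so levels are not compared between genes. The kidney label was borne out by its defining genes, with Umod, the uromodulin of the thick ascending limb, at 6513.6 to 7154.1 in the congenic samples and 5763.4 to 7455.6 in the Dahl S samples, and Lrp2, the endocytic receptor megalin, at 3067.6 to 4018.2 in the congenic samples and 2864.1 to 3765.7 in the Dahl S samples.

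Anxa2 encodes annexin A2, which links membranes to actin and is the core of the plasminogen-binding complex. Its signal was 410.5, 392.9 and 394.7 in congenic samples 1, 2 and 3, against 483.3, 481.4 and 448.6 in the Dahl S samples. All congenic samples lay below all Dahl S samples, and the congenic values were close together. The log2 difference was -0.24 (SE 0.14, 95% interval -0.55 to 0.07, n = 3 per strain) and the Dahl S signal was 1.18-fold the congenic one. With each sample left out in turn it stayed between -0.27 and -0.22.

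S100a10 encodes p11, the S100 partner that holds annexin A2 in a tetramer and that does not need calcium to do so. Its signal was 159.9, 125.3 and 189.4 in the congenic samples, against 184.4, 260.8 and 178.5 in the Dahl S samples. The strains overlapped through congenic sample 3, which lay above Dahl S samples 1 and 3. The log2 difference was -0.39 (SE 0.24), in the same direction as Anxa2 but with a wider interval, -0.94 to 0.16. Leaving out Dahl S sample 2 gave -0.22, and leaving out congenic sample 2 gave -0.23. Of the genes that this pair acts on, Plg, plasminogen, read 63.2, 97.0 and 51.2 in the congenic samples and 21.9, 27.1 and 28.4 in the Dahl S samples. The log2 difference of Plg was 1.41 (SE 0.44, adjusted p = 0.9997 in limma). All 3 Dahl S values were below the filter level of type C, so Plg was tested only through its congenic signal and its size and lack of overlap support nothing. Plat, the tissue plasminogen activator, differed by -0.21 (SE 0.46).

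Anxa5 encodes annexin A5, which coats exposed phosphatidylserine. Its probe set AF051895_at read 168.7, 173.7 and 165.4 in the congenic samples, against 221.3, 249.6 and 196.6 in the Dahl S samples. The strains did not overlap there, and the log2 difference was -0.39 (SE 0.18, interval -0.80 to 0.02). Its unadjusted limma p was 0.060, against 0.016 with no filter and 0.19 with median scaling, none past adjustment. The brighter probe set D42137exon_s_at read 476.9, 631.3 and 629.3 in the congenic samples, against 584.7, 737.2 and 739.2 in the Dahl S samples. Sample 1 was the lowest of its strain in both, and the strains overlapped because Dahl S sample 1 lay below congenic samples 2 and 3. This probe set differed by -0.25 (SE 0.17), by -0.12 without congenic sample 1 and by -0.36 without Dahl S sample 1. The dimmer probe set was at -0.39 without either of these samples. Both probe sets of Anxa5 thus read lower. The size of the brighter one moved when only 1 of the samples numbered 1 was left out. Without both of them it was -0.23 (SE 0.16), close to the value with all samples.

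Anxa2 and Anxa5 were the members with at least 1 tested probe set without overlap and all tested probe sets lower, and their promoters are shown for that reason. The sequences are the 250 bases before the gene start in RefSeq on GRCr8, printed 5′ to 3′ on the gene's strand, chr8:78986002-78986251 on the plus strand for Anxa2 and chr2:121272697-121272946 on the minus strand for Anxa5. Capitals mark 3 motifs searched on both strands: TATAAA, the TATA box; GGGCGG, the GC box; and TGANTCA, the AP-1 motif.
Anxa2: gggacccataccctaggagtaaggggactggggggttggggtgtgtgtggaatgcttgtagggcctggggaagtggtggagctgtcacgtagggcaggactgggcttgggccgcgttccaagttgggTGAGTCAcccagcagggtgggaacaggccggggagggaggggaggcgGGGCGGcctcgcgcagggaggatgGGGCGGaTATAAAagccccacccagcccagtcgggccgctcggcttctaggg
Anxa5: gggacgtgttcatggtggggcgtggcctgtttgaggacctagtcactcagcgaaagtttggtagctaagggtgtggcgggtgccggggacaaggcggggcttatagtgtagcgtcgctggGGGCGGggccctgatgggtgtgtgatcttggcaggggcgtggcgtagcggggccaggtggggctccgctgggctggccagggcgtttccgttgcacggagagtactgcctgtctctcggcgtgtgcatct
The Anxa2 window held 1 TATA box, 2 GC boxes and 1 AP-1 motif, and the Anxa5 window held 1 GC box and neither of the others. Over 27457 promoters cut to the same length, 13.1% held TATAAA, 32.4% GGGCGG and 6.36% TGANTCA. The table held 7 of the 10 members. Of the other 5 windows, those of Anxa1 and S100a4 held 1 TATAAA each, those of Anxa3, Anxa4 and S100a6 held 3, 1 and 1 GGGCGG, and none held TGANTCA. A match is a description of the letters and shows no bound factor.

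**Figure D2:**
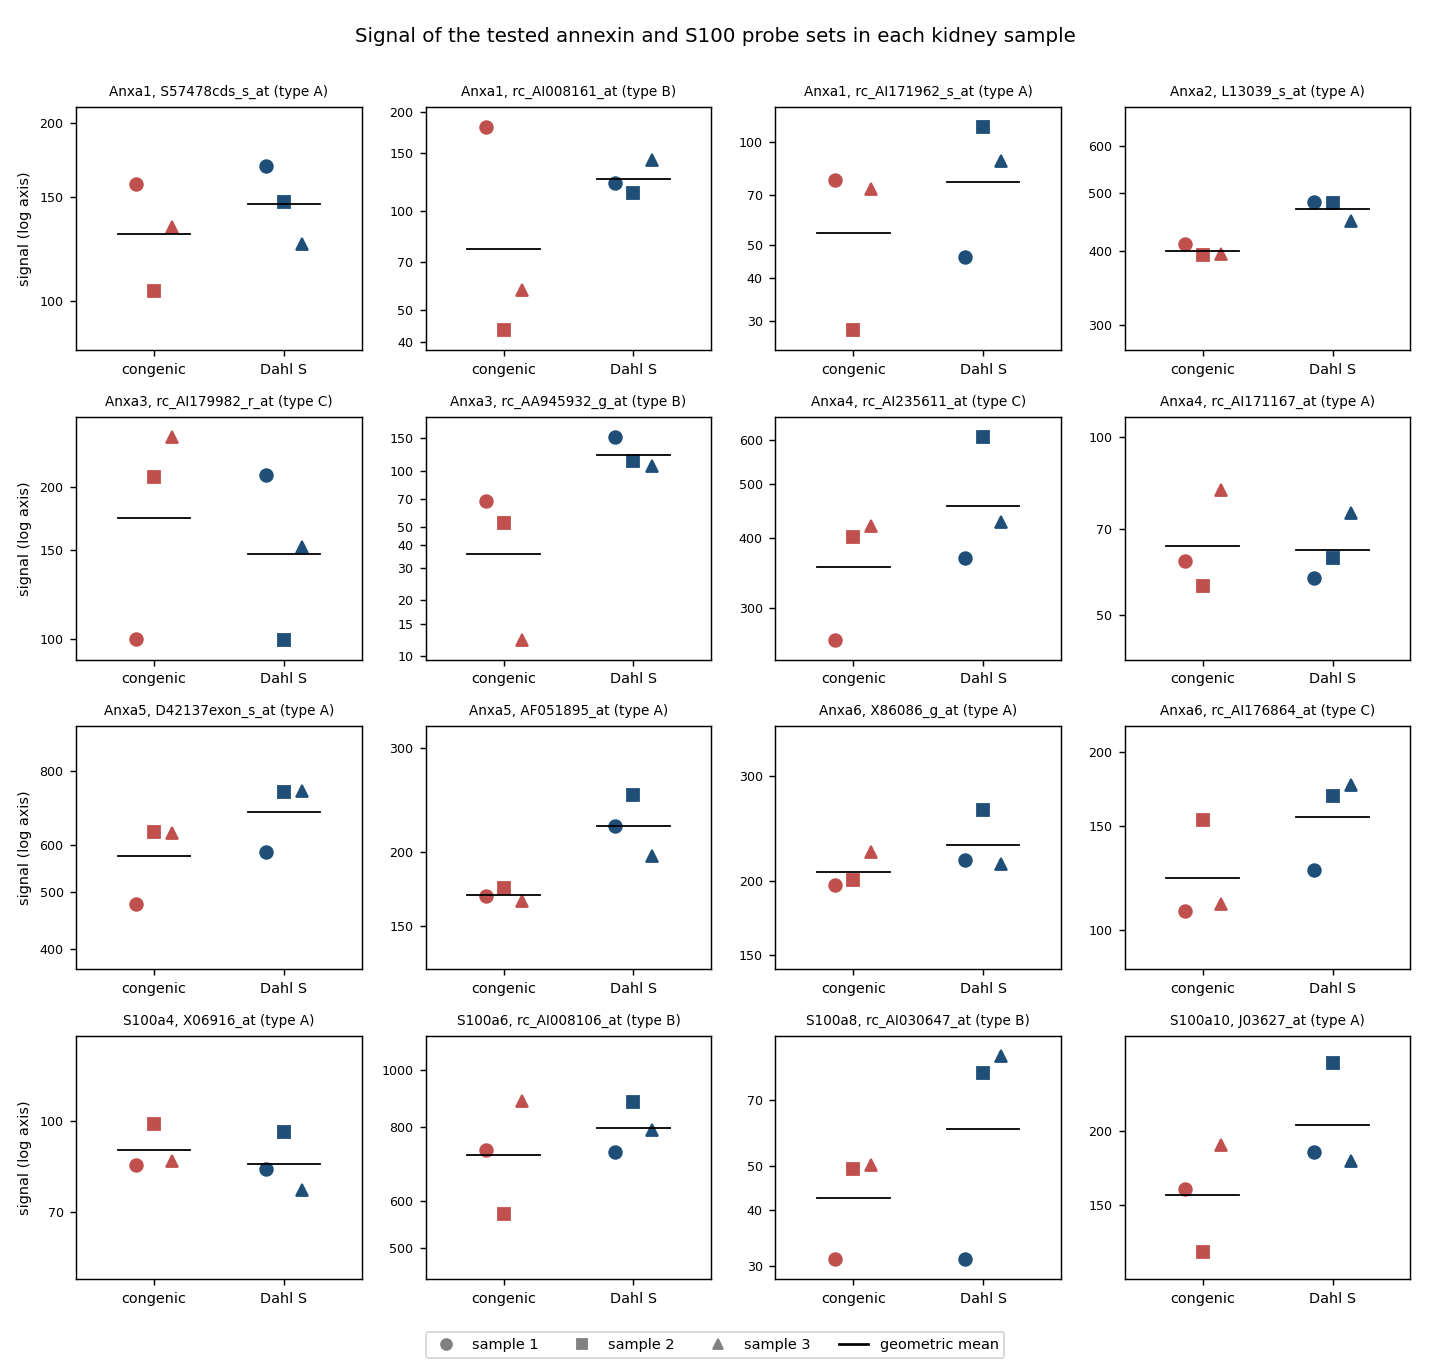
Signal (vertical axis, log scale, 1 range per panel) of the 16 tested annexin and S100 probe sets in the congenic (red, left) and Dahl S (blue, right) kidneys; symbols give the sample number and bars the geometric mean. The strains are separate for Anxa2, for Anxa3 on type B and for the dimmer Anxa5 probe set, and overlap in the other 13.

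Anxa3 encodes annexin A3, and its probe sets pointed both ways. On type B, rc_AA945932_g_at read 69.0, 52.4 and 12.3 in the congenic samples, against 152.3, 113.0 and 106.4 in the Dahl S samples. This was the one member probe set with an unadjusted limma p under 0.05 (log2 difference -1.79, SE 0.65, interval -3.24 to -0.34), and it ranked 132 of the 15721 tested by p. Congenic sample 3 was below the filter level of type B, and without that sample the difference was -1.02 (SE 0.41). The congenic geometric mean, 35.4, was also below that level of 39.3, so this probe set was tested only through its Dahl S signal. Its size is thus uncertain, and its p and lack of overlap support nothing. Without Dahl S sample 1, or with no filter on dim probe sets, the unadjusted limma p was no longer under 0.05. On type C the brighter rc_AI179982_r_at read 100.1, 208.5 and 250.7 in the congenic samples, against 210.8, 99.9 and 152.0 in the Dahl S samples. Here congenic samples 2 and 3 were high and the strains overlapped. The difference was 0.24 (SE 0.39), and without both samples numbered 1 it was 0.89 (SE 0.28). The other 5 Anxa3 probe sets were not tested, and the brightest of them, on type C, read 45.9, 12.9 and 8.3 in the congenic samples, against 56.0, 39.0 and 25.8 in the Dahl S samples. That one read lower in congenic samples 2 and 3 than in any Dahl S sample, but congenic sample 1 overlapped.

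Anxa1 encodes annexin A1, a glucocorticoid-induced protein that acts on formyl peptide receptors to limit leukocyte entry. Its brightest probe set read 157.5, 104.1 and 133.4 in the congenic samples, against 168.9, 147.0 and 124.8 in the Dahl S samples. These overlapped, with a log2 difference of -0.17 (SE 0.24), which was -0.01 without congenic sample 2 and -0.31 without congenic sample 1. On type B the gene read 179.7, 43.4 and 57.6 in the congenic samples, against 121.7, 113.3 and 142.4 in the Dahl S samples. Congenic sample 1 was the highest of the 6 there and the other congenic samples the lowest, which gave -0.71 (SE 0.52) with it and -1.32 (SE 0.40) without it. The remaining probe set differed by -0.50 (SE 0.49), again with congenic sample 2 lowest, at 28.3, and was -0.02 without that sample. All 3 probe sets were lower. In each of them the SD of log2 signal among the congenic samples was larger than the difference, at 0.30, 1.085 and 0.82 in the order given.

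Anxa4 encodes annexin A4, an epithelial annexin of apical membranes. Its brighter probe set read 263.2, 402.6 and 421.6 in the congenic samples, against 368.2, 608.7 and 428.1 in the Dahl S samples. Sample 1 was the lowest of its strain in both, and congenic samples 2 and 3 lay above Dahl S sample 1. The log2 difference was -0.37 (SE 0.25), while the dimmer probe set gave 0.02 (SE 0.29). With 1 sample left out the brighter one ran from -0.52 without Dahl S sample 1 to -0.15 without congenic sample 1, and the dimmer one lay on both sides of 0, from -0.14 to 0.13. Anxa6 encodes annexin A6, a large annexin tied to membrane cholesterol. Its brighter probe set read 196.6, 200.7 and 223.7 in the congenic samples, against 217.0, 262.8 and 213.6 in the Dahl S samples, and only congenic sample 3 reached into the Dahl S range. It differed by -0.15 (SE 0.18), or -0.06 without Dahl S sample 2, and the probe set on type C by -0.34 (SE 0.24). A dim Anxa6 probe set that was not tested ran from 18.3 to 53.7 in the congenic samples and from 4.6 to 29.8 in the Dahl S samples.

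The other S100 members also overlapped between the strains. S100a4, which binds non-muscle myosin and is widely used as a fibroblast marker, read 84.0, 98.5 and 85.4 in the congenic samples, against 82.7, 95.8 and 76.3 in the Dahl S samples. The strains overlapped with a log2 difference of 0.08 (SE 0.24, interval -0.47 to 0.62). S100a6, calcyclin, read 734.0, 571.6 and 887.1 in the congenic samples, against 728.1, 884.1 and 792.0 in the Dahl S samples. Its difference of -0.15 (SE 0.20) rested on congenic sample 2, and without that sample it was 0.01.

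S100a8 encodes a subunit of calprotectin, the main cytosolic protein of neutrophils, which is built with S100A9. Its one tested probe set read 31.2, 49.2 and 50.4 in the congenic samples, against 31.2, 80.6 and 87.7 in the Dahl S samples. Sample 1 was the lowest in each strain, at the same signal and below the filter level of type B, while Dahl S samples 2 and 3 were above all congenic samples. The difference was -0.50 (SE 0.58, interval -1.81 to 0.80), and it ran from -0.98 without Dahl S sample 1 to -0.24 without Dahl S sample 3. Its other 2 probe sets were near the floor, at 0.5 to 4.2 and at 0.9 to 28.3 over all samples, and S100a9 read 1.9 to 3.3 in the congenic samples and 1.2 to 2.4 in the Dahl S samples. Of 6 neutrophil genes on the arrays, 1 was tested, the chemokine receptor gene Cxcr1, which differed by 0.14 and overlapped. These arrays therefore gave little signal from which to read calprotectin.

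**Figure D3:**
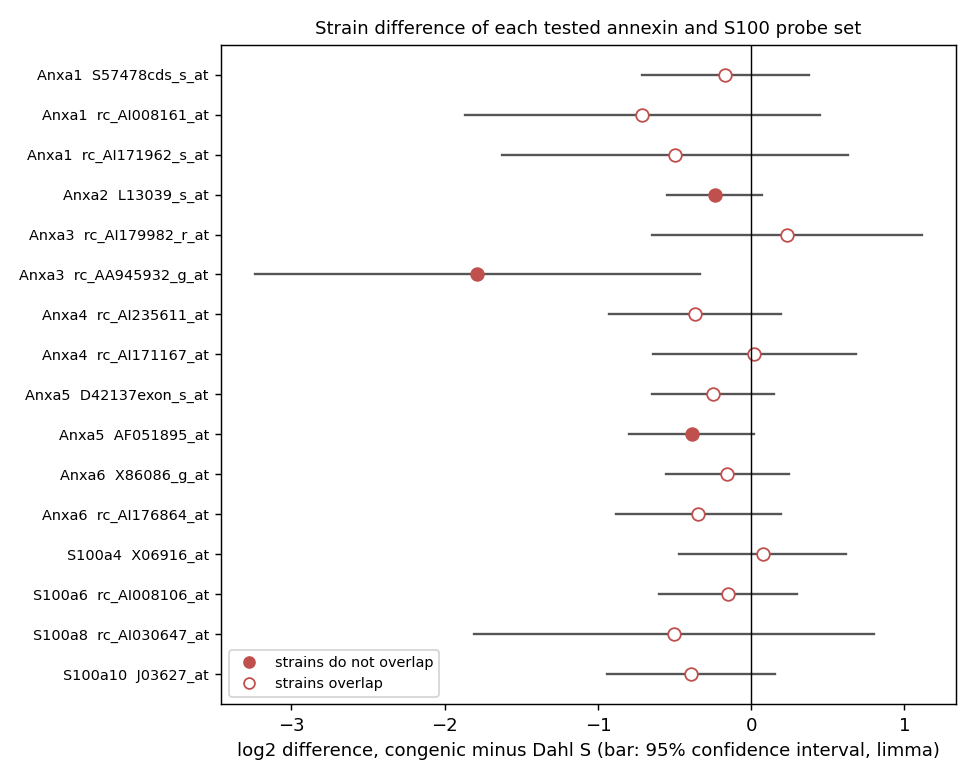
Log2 difference, congenic minus Dahl S, of each tested probe set (circles) with its 95% confidence interval from limma (bars); filled circles mark probe sets in which the strains do not overlap. All intervals but that of Anxa3 rc_AA945932_g_at hold 0, and 13 of the 16 circles lie left of 0.

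The tested probe sets of 1 gene were set side by side. Of the 5 genes with several tested probe sets, all tested probe sets were lower for 3 (Anxa1, Anxa5 and Anxa6), and the probe sets of the other 2 (Anxa3 and Anxa4) pointed both ways. Of the 8 member probe sets under the filter, 3 read lower and 5 higher, the dim one of Anxa6 among those higher. Over the samples, Dahl S sample 2 stood out: 9 of the 10 genes were above their own 6-sample mean there, against 4 and 5 in Dahl S samples 1 and 3. In congenic samples 1, 2 and 3 the count was 1, 3 and 6. The median deviation of the 10 genes was -0.16, -0.08 and 0.02 in congenic samples 1, 2 and 3, against -0.03, 0.23 and 0.02 in the Dahl S samples. Congenic sample 3 thus lay above Dahl S sample 1, and the strains overlapped. Without Dahl S sample 2 the gene median was -0.16 and 9 of 10 genes read lower.

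The rest of the family was mixed. Of 19 other annexin and S100 genes, 11 were on the arrays and 7 were tested. Of the 7, 4 read lower and 3 higher; their median difference was -0.03 on the log2 scale and turned to 0.01 with quantile normalization and 0.06 with median scaling. None passed the test. S100a16, a widely expressed S100 protein, read 794.3, 888.1 and 885.9 in the congenic samples, against 936.3, 1201.3 and 1052.6 in the Dahl S samples. The strains did not overlap (-0.31, SE 0.15), and its second probe set gave -0.42 (SE 0.29) with overlap. S100a11, the partner of annexin A1, read 765.9, 427.7 and 367.5 in the congenic samples, against 1245.7, 626.9 and 557.4 in the Dahl S samples. Sample 1 was the highest of its strain in both, so the strains overlapped, and the difference was -0.62 (SE 0.35). S100a1, the isoform of striated muscle that is also found in kidney, had 4 tested probe sets between -0.27 and 0.14.

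The members lie on chromosomes 1, 2, 4, 8, 10 and 14 of the GRCr8 assembly, and none lies on chromosome 9, which carries the introgressed segment. The 4 S100 members share chromosome 2 with most of the S100 family. There S100a4 and S100a6 have S100a5 between them, S100a8 lies beside S100a9, and S100a10 lies beside S100a11 in a separate place. The log2 differences were 0.08 for S100a4, -0.15 for S100a6, -0.62 for S100a11 and -0.39 for S100a10, none past the test.

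Among partners, receptors and ligand pathways of both families, 17 of 31 listed genes were tested, 7 lower and 10 higher, with a median of 0.06. Without both samples numbered 1, 12 of the 17 read lower and the median was -0.06. Nfkb1, a subunit of the transcription factor that receptors for S100A8 activate (-0.45, SE 0.27, without overlap), and Plg had the smallest p values, and neither passed. Myh9, the non-muscle myosin that S100A4 binds, differed by -0.40 (SE 0.26), and Cacybp, the calcyclin-binding protein, by 0.08 (SE 0.75). Other calcium sensors and buffers did not lean one way. Of 16 tested, 7 were lower and 9 higher, with a median of 0.04 (-0.0035 with quantile normalization), with Calb2, calretinin, at 0.64 (SE 0.42) and Calm2, a calmodulin gene, at -0.22 (SE 0.16).

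Markers of cells and states in which annexins and S100 proteins are abundant are given beside the members, and none passed the test. Whole kidney was measured, so fewer cells of a type and less RNA per cell cannot be told apart. Of 12 tubular injury markers tested 11 read lower in the congenic kidneys (median -0.59), with Clu, the chaperone clusterin, at -1.09 (SE 0.19) and Spp1, osteopontin, at -1.04 (SE 0.21). Their summed signal was 2872.6 to 3661.5 in the congenic samples and 4970.0 to 7043.3 in the Dahl S samples, without overlap. Much of that sum was Spp1, at 1199.6 to 1807.7 in the congenic samples and 2485.2 to 3747.4 in the Dahl S samples. Clu added 453.4 to 604.9 and 987.6 to 1426.0. The sum thus largely repeats these 2 genes. The list was chosen with earlier results of these data known, so its lack of overlap supports nothing. Of 16 leukocyte markers 14 read lower (median -0.25, 13 lower with median scaling), with Coro1a, an actin regulator of blood cells, at -0.81 (SE 0.33) and Cd68 of macrophages at -0.43 (SE 0.19). Their summed signal was 5809.7 to 6411.9 in the congenic samples and 6632.0 to 8275.6 in the Dahl S samples, also without overlap. Cd74, the brightest of the list, made 2007.0 to 2094.4 of it in the congenic samples and 2285.2 to 2580.3 in the Dahl S samples. The separation of the sum therefore leans on this gene. Of 13 fibroblast and stroma markers 11 read lower (median -0.33), with the matrix genes Dcn at -0.69 (SE 0.17) and Col1a1 at -0.38 (SE 0.13). The summed signal of the 13 overlapped, at 8423.0 to 12502.0 in the congenic samples and 9001.5 to 13117.3 in the Dahl S samples. Sparc, the brightest of the list, made 3057.0 to 6740.0 of it in the congenic samples and 2483.4 to 5113.5 in the Dahl S samples. It read higher in the congenic kidneys (0.39, SE 0.37), and the overlap of the sum leans on this gene.

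All 7 tested markers of papilla, urothelium and collecting duct read higher in the congenic kidneys (median 0.18), with the urea transporter gene Slc14a2 at 0.44 (SE 0.27) and the aldose reductase gene Akr1b1 at 0.23 (SE 0.16). Of 13 kidney epithelium markers 11 read higher (median 0.18, 9 higher with quantile normalization), with Podxl of podocytes at 1.08 (SE 0.54) and Pck1, the gluconeogenic carboxykinase of the proximal tubule, at 0.31 (SE 0.16). The size for Podxl owed most to Dahl S sample 3, at 55.6, against 266.1 and 277.1 in Dahl S samples 1 and 2 and 289.5 to 365.7 in the congenic samples. A dimmer Podxl probe set on type C overlapped. Of 10 endothelial markers 4 read lower and 6 higher (median 0.06), with Sox17 at 1.27 (SE 0.36) and Emcn at 0.36 (SE 0.16). Among the 4 lower, Pecam1 was at -0.40 (SE 0.28), Cdh5 at -0.28 (SE 0.20) and Flt1 at -0.37 (SE 0.39). Of 6 blood cell genes 5 read lower (median -0.44), with Hba-a1 at -0.67 and Hba-a3 at -0.58, and Dahl S sample 3 had the highest signal of both. The per-sample median of the blood cell genes was 1.49 in Dahl S sample 3, against -0.31 and -0.41 in Dahl S samples 1 and 2. It was 0.19, -0.16 and -0.78 in congenic samples 1, 2 and 3. The lower reading thus rested on Dahl S sample 3. Without both samples numbered 1 the median difference of these genes was -1.01, but Dahl S sample 3 weighs more there. In the injury and stroma lists, as among the members, Dahl S sample 2 had the highest per-sample median, 0.63 and 0.30, and it was 0.39 in the leukocyte list. The part of these cells and states in the annexin and S100 values was not tested.

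**Figure D4:**
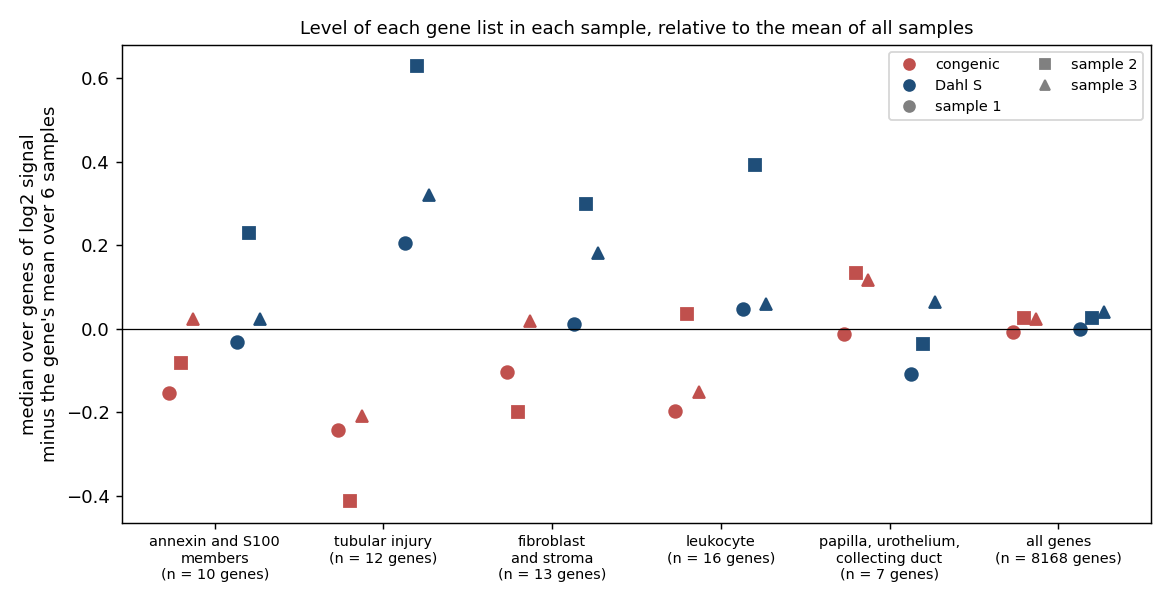
Median over the tested genes of each list of the log2 signal minus the gene's mean over 6 samples (vertical axis), for each congenic (red, left) and Dahl S (blue, right) sample; symbols give the sample number. Of the lists drawn, the strains are separate for tubular injury and, narrowly, leukocytes, and overlap for the annexin and S100 members, where Dahl S sample 2 is highest at 0.23 and congenic sample 1 lowest at -0.16.

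The genes whose signal moved most like the brightest annexin and the brightest S100 probe set over the 6 samples were found by the root mean square difference of mean-centred log2 signal, among 8158 other genes. For Anxa5 they were Psmd8, a proteasome subunit (0.06), Pabpc4, a poly(A)-binding protein (0.06), and Ifitm1, an interferon-induced membrane protein (0.06), where the median of all candidates was 0.34. For S100a6 they were Sphk2, a sphingosine kinase (0.03), Rhoc, a small GTPase (0.04), and Edf1, a transcriptional coactivator (0.05), against a median of 0.36. With 6 samples and so many candidates some genes come close in any case.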

How the data were processed

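Per the labels, total kidney RNA of 3 congenic and 3 Dahl S samples was hybridised to 3 array types. The authors' deposited intensity values are linear, 1 per probe set, and came already scaled: leaving out the top and bottom 2%, each array averaged 150.1 to 150.2. The sources used here name no software. No further scaling was applied. Values below the 10th percentile of an array type were raised to it (3.1, 6.8 and 4.9), log2 was taken, the 59 controls of each type were left out, and testing was limited to probe sets whose mean log2 reached the type's 40th percentile. limma 3.58.1 in R 4.3.3 (lmFit, eBayes with trend, 1 fit per type, congenic minus Dahl S) gave differences, with Benjamini-Hochberg adjustment over all tested probe sets and a threshold of 0.05. The fit was also run on simulated data with independent samples, which leaves out the likeness between the samples numbered 1. Gene names came from GEO's platform annotation, with a single symbol on 18178 probe sets, more than 1 on 391, and no symbol on 7633; all 10 members matched GRCr8 by gene ID. Named genes were the members and, of each other list, the 2 with the smallest p, with further list genes and probe sets chosen after their values were seen. Members and lists were chosen with earlier results of these data known. Alternatives covered floor, filter, normalization, eBayes settings, sample number, samples left out, adjustment, threshold and the mean of probe sets. Figures used matplotlib 3.10.9 in Python 3.11.15.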

Additional observations from a re-analysis of the deposited data

How the results depend on the processing

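Under every alternative run, limma called 0 probe sets in all and 0 of the members. The median log2 difference of the 10 genes was -0.20, and stayed negative under each alternative, from -0.27 to -0.16 with 1 sample left out in turn, with 7 to 9 genes lower. Directions turned for Anxa3 and S100a6. Anxa3 read -0.03 without congenic sample 3, -0.0442 without Dahl S sample 2 and -0.78 as the mean of its tested probe sets, against 0.24, with a highest value of 0.6335 without congenic sample 1, and S100a6 read 0.0145 without congenic sample 2, against -0.15 with all samples and -0.3026 without congenic sample 3. Leaving out a sample put Anxa1 on type B between -1.32 and -0.30. With the sample number as a replicate block the median was -0.20 and 0 members passed, with 2 of 16 at an unadjusted limma p under 0.05 and 819 of all probe sets (5.21%), against 391 without the block; the count was 798 with no filter, 259 with the 60th percentile filter, 704 with a term for samples numbered 1 and 600 without congenic sample 1. The numbers are not shown to pair the samples: deviations of samples numbered 1 correlated at 0.45 across probe sets, those numbered 2 and 3 at 0.08 and 0.18, and congenic sample 2 correlated better with Dahl S sample 3 (0.15). No detection call was used, so whether dim signals lie above background is unknown.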
